A study of Mus musculus with 4 samples.

Results

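The mRNAs described here encode the subunits, activators and assembly factors of the proteasome, taken as every mouse gene whose symbol is Psm followed by a letter from a to g and a number. Each member enters by gene name alone, with no measured value, but the family was chosen with earlier results of these data known. The RefSeq gene table holds 51 such genes among 21900 protein-coding genes, and 49 of the 51 encode proteins of the proteasome or of its assembly. The other two match by name only: Psmc3ip encodes the meiotic recombination factor HOP2, and Psme3ip1 a protein that binds the activator PA28gamma. Of the 51 genes, 10 had a listed NAT10 peak (19.6%), against 7.33% of all protein-coding genes, and these 10 carried 12 of the 4172 distinct peaks of the series.

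NAT10, the enzyme that writes N4-acetylcytidine on RNA, was mapped by eCLIP in mouse 32D cells, a wild-type line from bone marrow kept in medium with serum and mouse interleukin-3. In eCLIP, ultraviolet light links proteins to RNA, and the RNA held by an antibody is compared with the same material before immunoprecipitation, the input. All 4 libraries share the line, genotype and medium. They were 2 immunoprecipitates with a NAT10 antibody and 2 inputs without antibody, and the labels do not say whether they came from separate cultures. The labels call these cells lymphoblastocytes. A peak list shows no expression levels and cannot check that label. Of 12 genes listed as markers of myeloid progenitor-like cells, 5 had a peak (Prtn3, Csf2rb, Ptprc, Srgn and Gata2). Mpo, Elane, Ctsg, Csf2rb2, Il3ra, Spi1 and Cebpa had none. That list was not limited to genes particular to myeloid cells. Of 6 lymphoid marker genes none had a peak, beside 7.33% of all protein-coding genes. At that share a count of 0 of 6 says little.

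The proteasome is the protease that destroys proteins tagged with ubiquitin. Its 20S core is a barrel of alpha rings around beta rings, and the proteolytic sites lie on certain beta subunits. The 19S particle caps the barrel: its base holds ATPases that unfold the substrate, and its lid removes the ubiquitin chain. Other caps, such as PA28 and PA200, open the core without ubiquitin, and dedicated chaperones guide assembly. Proteasome activity is needed for the turnover of cell cycle and signalling proteins in dividing blood cells.

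The authors' list gives each peak a log2 fold of immunoprecipitate over input and a -log10 p, both their own values, with no column per library. The reads behind them could nevertheless be recovered. Many p values of the list lie on a pair of regular ladders, with 1764 peaks on one and 931 on the other. These ladders match the one-sided Fisher p values of whole reads against 1 input read. Fitting the ladders gave the library totals: about 2200000 reads in one immunoprecipitate against 4100000 in its input (pair A), and 2600000 against 4200000 (pair B). With these totals 3942 of the 4172 peaks (94.5%) had exactly 1 solution, in which the listed p is that of the weaker pair and the listed fold is the mean of the log2 folds of both pairs. All 12 proteasome peaks were among them. The reads of the weaker pair are exact under this model; in the other pair only the ratio of reads to input reads is fixed, and the smallest whole numbers are given. The files do not say which pair is replicate 1.

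An assembly factor had the strongest proteasome peaks. Psmd5 encodes S5b, a chaperone that binds base ATPases during 19S assembly. It had 2 peaks in its 3' UTR that touch each other, at chromosome 2, 34741429 to 34741604 and 34741332 to 34741428 (GRCm39, minus strand), a joined stretch of 273 nt. In the first peak, the immunoprecipitate of pair A, the weaker pair, held 88 reads (exact 95% Poisson interval 70.6 to 108). That of pair B held 100 as the smallest whole number (81.4 to 122 for that number), against 1 input read in each pair. The log2 folds were 7.35 in both pairs, about 163-fold. The second peak held 48 and 51 reads, again against 1 input read each, for log2 folds of 6.48 and 6.38. Both pairs thus gave nearly equal values on both peaks. By its strongest peak Psmd5 ranked 56 among the 1629 gene identifiers with a peak. With a peak on 1 of 7 assembly factors, their share was 14.3%, beside 7.33% of all protein-coding genes. The other 6 assembly factors had no listed peak. They were Psmg1, Psmg2, Psmg3 and Psmg4, which pair up to guide the alpha ring, and Psmd9 and Psmd10, which like S5b act on the base.

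**Figure D1:**
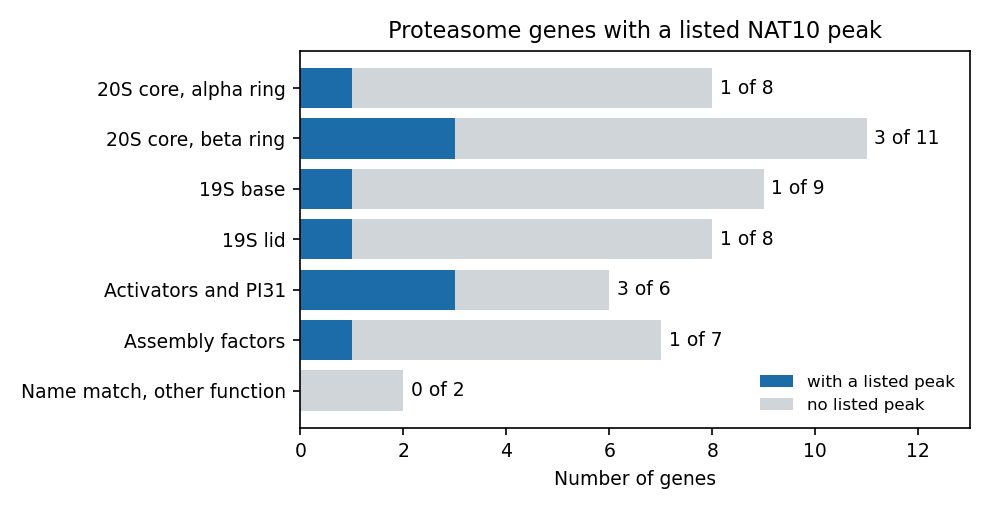
Number of genes (x axis) in each group of proteasome genes, split into genes with a listed NAT10 peak (blue) and without (grey). The beta ring (3 of 11) and the activators with PI31 (3 of 6) hold 6 of the 10 genes with a peak. Of all protein-coding genes, 7.33% had a listed peak. Differences between groups were not tested.

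Activators and the regulator PI31 had peaks on 3 of 6 genes (50%), beside 7.33% of all protein-coding genes. Psmf1 encodes PI31, a protein first described as an inhibitor of the 20S core. Its peak of 259 nt in an exon (chromosome 2, 151569787 to 151570045, minus strand) held 30 reads in pair A and 38 in pair B, each against 1 input read. The log2 folds were 5.80 and 5.95, and the gene ranked 249. Psme4, the gene of the large nuclear activator PA200, had a peak of 152 nt in an exon (chromosome 11, 30815918 to 30816069, plus strand). It held 14 and 21 reads, for log2 folds of 4.70 and 5.10. Psme3, for PA28gamma, the PA28 form of the nucleus, had 2 touching peaks in its 3' UTR on chromosome 11, plus strand. The peak at 101213086 to 101213177 held 14 and 18 reads (log2 folds of 4.70 and 4.88). The one at 101213017 to 101213085 held 15 reads against 1 input read in pair A and 16 against 2 in pair B, so that the log2 folds were 4.80 and 3.71. That difference of 1.09 between pairs was the widest of the 12 peaks. With the smallest whole number taken in pair A, it came with a difference of 1 input read. No peak was listed for Psme1 and Psme2, the PA28 subunits induced by interferon, or for Psme2b, a copy of Psme2.

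The 20S core had peaks on 4 of 19 genes (21.1%), beside 7.33% of all protein-coding genes. Of these 4 genes, 3 encode beta subunits without a proteolytic site. Psmb4 (beta7) had a peak of 102 nt in an exon at chromosome 3, 94793827 to 94793928, with 20 reads in pair A and 16 in pair B and log2 folds of 5.21 and 4.71. Psmb3 (beta3) had 12 and 10 reads in an exon at chromosome 11, 97598160 to 97598250 (log2 folds of 4.48 and 4.03). Psmb2 (beta4) had 11 and 10 reads in an exon at chromosome 4, 126571600 to 126571650 (4.35 and 4.03). With 1 input read, the fewest reads of a weaker pair over the 3942 peaks with 1 solution were 9 in pair A and 10 in pair B. Psmb2 and Psmb3 therefore sit at the edge of what is listed, and their common p is found on 150 peaks of the list, these included. The catalytic subunits Psmb5, Psmb6 and Psmb7 had no listed peak. Nor had the forms that replace them in the immunoproteasome and in the thymus (Psmb8, Psmb9, Psmb10 and Psmb11) or the structural subunit Psmb1. Beside 7.33% of all protein-coding genes, the lack of a peak on so few genes says little.

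Of the 8 alpha subunits, which form the gate of the core, 1 had a peak, Psma6 (alpha1). That is 12.5%, beside 7.33% of all protein-coding genes. The Psma6 peak was the lowest of the 12 by fold, though not by p or reads. It was also the narrowest, with 32 nt in the 3' UTR at chromosome 12, 55456943 to 55456974. Pair A had 12 reads against 1 input read and pair B 14 against 2, for log2 folds of 4.48 and 3.51. Psma1, Psma2, Psma3, Psma4, Psma5, Psma7 and the testis form Psma8 had none.

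The 19S particle had peaks on 2 of 17 genes (11.8%), beside 7.33% of all protein-coding genes. Psmd14 encodes Rpn11, the lid enzyme that cuts the ubiquitin chain off the substrate. Its peak of 258 nt in an exon (chromosome 2, 61555814 to 61556071) held 23 and 19 reads, for log2 folds of 5.42 and 4.95. Psmd2, for the base scaffold Rpn1, had a peak of 147 nt in the 3' UTR (chromosome 16, 20478707 to 20478853) with 12 and 13 reads and log2 folds of 4.48 and 4.41. None of the 6 ATPase genes of the base, Psmc1 to Psmc6, had a listed peak. These 6 are all the ATPase genes of the base. Beside the 7.33% of all protein-coding genes with a peak, a count of 0 of 6 says little. Psmd1 and Psmd4 in the base, and Psmd3, Psmd6, Psmd7, Psmd8, Psmd11, Psmd12 and Psmd13 in the lid, had none either. A gene without a listed peak is not shown to be unbound. The shares with a peak were 21.1% for the 20S core, 11.8% for the 19S particle and 50% for activators with PI31. Each group is small and holds all its genes by the name rule. Differences in share between groups were not tested.

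**Figure D2:**
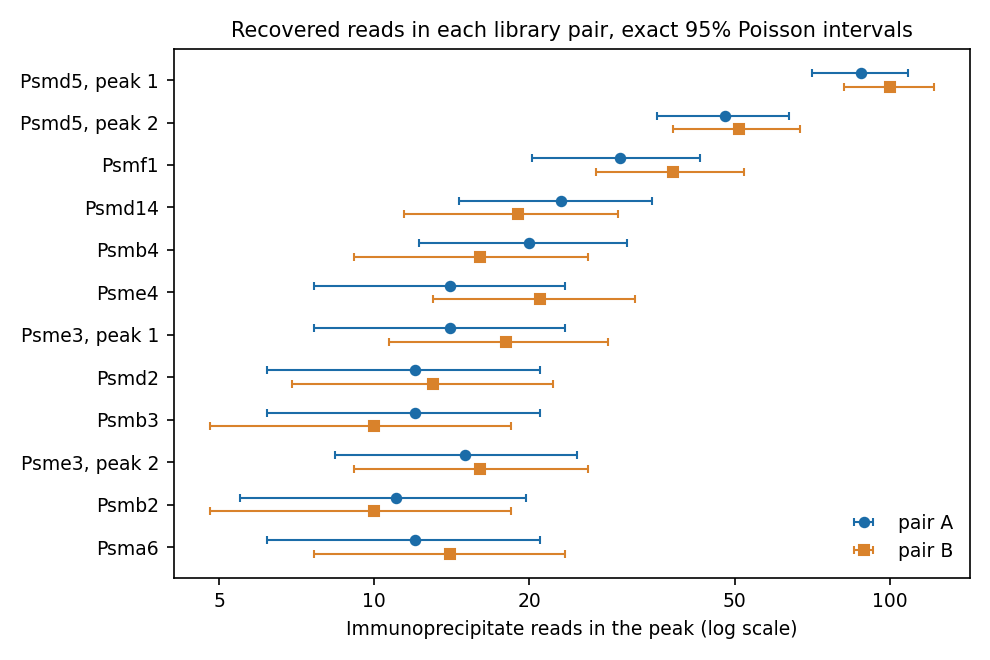
Reads of the NAT10 immunoprecipitate in each of the 12 proteasome peaks (x axis, log scale) for library pair A (circles) and pair B (squares), with exact 95% Poisson intervals. In the pair that is not the weaker, the smallest whole number is shown, and the interval holds for that number only. Both Psmd5 peaks and Psmf1 lie at 30 or more reads in both pairs, and the other 9 peaks at 23 or fewer.

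The order of the genes by strongest peak was Psmd5, Psmf1, Psmd14, Psmb4, Psme4, Psme3, Psmd2, Psmb3, Psmb2 and Psma6. Psmd5 stood 1.47 above Psmf1 on the log2 scale, and their read intervals did not overlap in either pair. In the other 8 of the 9 neighbouring pairs of this order, the read intervals overlapped in both library pairs. Overlap is not a test of a difference, and the order within these neighbouring pairs was not tested. The fold itself is less certain than the reads, because 10 of the 12 peaks rest on 1 input read in the weaker pair. In the other pair of these peaks, 1 is the smallest whole number that fits. A count of 1 has an exact 95% interval of 0.0253 to 5.57 reads. No source used here says whether the 1 was counted or put in place of 0. The intervals cover counting error only. In the pair that is not the weaker, they take the smallest whole number as the count. The pairs differed by a median of 0.36 over these 12 peaks, against 0.19 over all solved peaks. The fold was higher in pair A for 9 peaks and in pair B for 3.

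**Figure D3:**
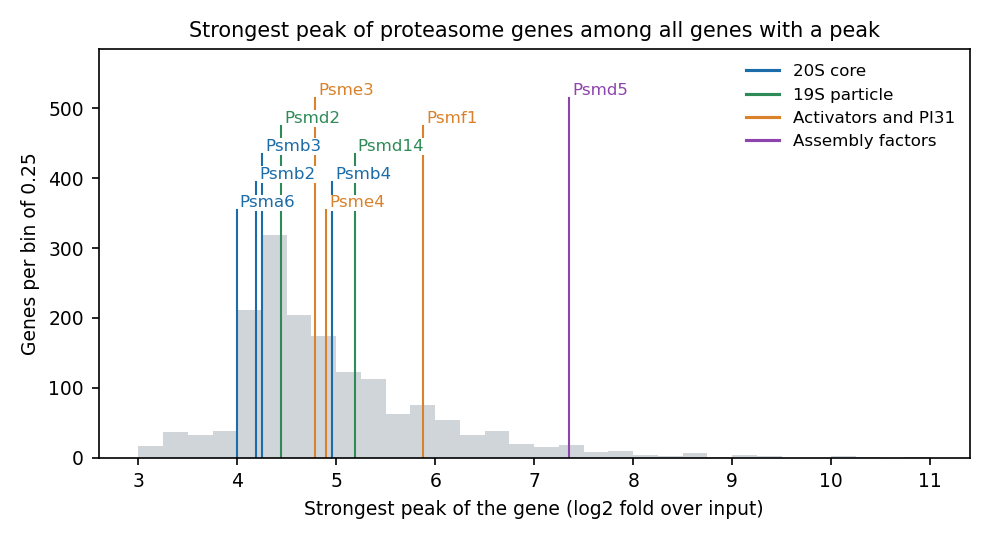
Histogram of the strongest peak per gene (x axis, log2 fold over input) for all genes with a peak (grey, genes per bin of 0.25), with the 10 proteasome genes as lines coloured by group. Apart from Psmd5 and Psmf1, the proteasome genes lie between 4.00 and 5.18, a range that holds 62.0% of all genes with a peak.

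Among all bound genes the proteasome genes were spread widely in strength, from rank 56 (Psmd5) to rank 1510 (Psma6) of 1629. The median of their strongest peaks was 4.84, against 4.69 over all genes with a peak, and 6 of the 10 lay above that value. Peaks above the list's median log2 fold of 4.60 were found on 6 of the 51 genes, against 3.95% of protein-coding genes. Peaks above the median -log10 p were found on 3 (Psmd5, Psmf1 and Psmd14), against 3.57%. The median number of reads in the weaker pair was 15, as over the 3942 peaks with 1 solution. Single peaks were the rule: 8 of the 10 genes had 1 peak, and the 2 peaks of Psmd5 and of Psme3 touch each other. With touching peaks joined, each of the 10 genes had a single bound region, as did 867 of the 1629 gene identifiers of the whole list (53.2%).

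By the authors' class of each peak, peaks lay in the 3' UTR of 4 genes (Psmd5, Psme3, Psmd2 and Psma6) and in exons of the other 6. No gene had both classes, and no peak was classed as 5' UTR. These classes are the authors' labels throughout and were not checked against gene positions. Over all protein-coding genes, 5.2% had a 3' UTR peak, 3.16% an exon peak and 0.67% a 5' UTR peak. By peak, 6 of the 12 were in the 3' UTR (50%), against 57.6% of all peaks. The exon peaks of the proteasome genes included the 2 widest, on Psmf1 and Psmd14. Only 21 of the 4172 peaks (0.50%) were wider than 250 nt, and these 2 were among them; the mark of 250 nt was set after their widths were seen. The median width was 99.5 nt, against 79 nt in the whole list.

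**Figure D4:**
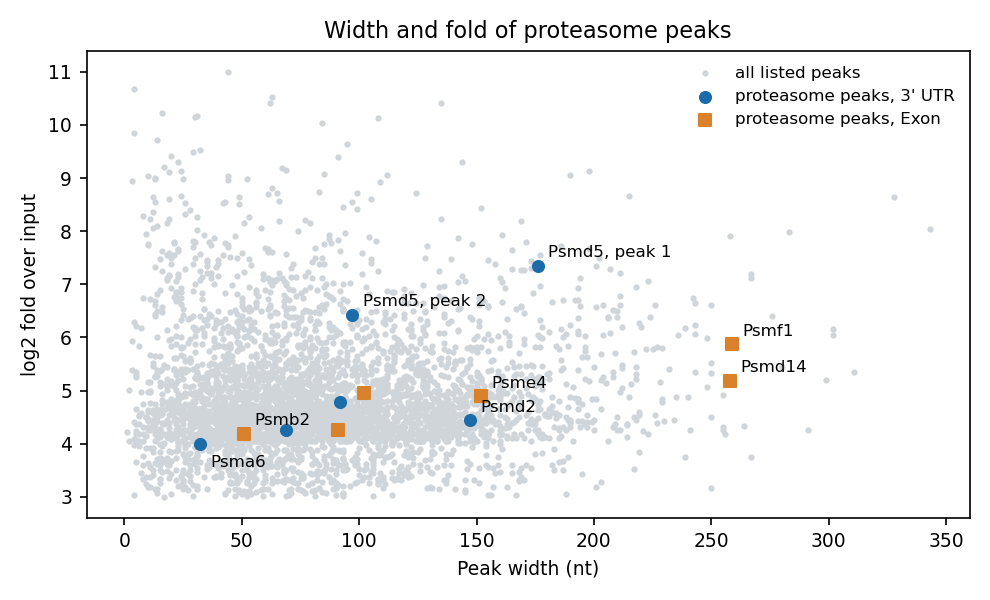
Peak width (x axis, nt) against log2 fold over input (y axis) for all listed peaks (grey) and the 12 proteasome peaks in 3' UTRs (circles) and exons (squares). The peaks of Psmf1 and Psmd14 stand out by width, at 259 and 258 nt, and those of Psmd5 by fold.

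The bound members were spread over 6 chromosomes. Plus-strand genes held 8 of the 12 peaks and minus-strand genes 4. Of the 10 genes 6 lie on chromosomes 2 and 11, which hold 16 of the 51 genes. The nearest peak of another gene was at least 70692 nt away from every proteasome peak, so none of them is listed under a second gene. Bound proteasome genes spanned a median of 23.5 kb of the genome (gene lengths of the GRCm38.p6 table), against 9.93 kb for the 41 without a peak. The same order held over all protein-coding genes, with 29.3 kb and 16.4 kb. The part of gene length in whether a peak is listed was not tested, and neither was that of mRNA abundance, since no expression values were used here.

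Of the other genes of the ubiquitin and proteasome pathway reported here, 8 of 28 had peaks (28.6%), against the 7.33% of all protein-coding genes; these 28 are part of a longer list. Ubb, a polyubiquitin gene, had 2 peaks in the 5' UTR and 1 in an exon. The strongest, in the 5' UTR, had a log2 fold of 6.14 with 35 and 47 reads in the pairs. Rps27a, which encodes ubiquitin fused to a ribosomal protein, had 5 peaks, all in exons, with log2 folds up to 5.17. Ecpas, a scaffold that binds the 26S proteasome, had 3 exon peaks on chromosome 4, with 51 and 53 reads in the strongest (log2 fold 6.50). Usp14, a deubiquitinase that docks on Rpn1, had 1 peak in the 3' UTR (4.70, with 14 and 16 reads). Of the proteasome proteins with other names, Adrm1, Sem1, Pomp, Uchl5, Txnl1 and Akirin2 had none, and Paaf1, which did not match the RefSeq table, had no row under that symbol. Among 9 genes that deliver substrates, Zfand5 (3 peaks, up to 4.65) and Rad23b (4.31, with 10 and 13 reads) had peaks. Uba1, the main ubiquitin-activating enzyme, had 1 (4.38, with 9 and 16 reads). The 9 reads of Uba1 in pair A are the fewest found there in a weaker pair against 1 input read. Its peak thus sits at the edge of what is listed. Nfe2l1, the transcription factor that raises proteasome gene expression, had the weakest (3.24), with 11 reads against 2 input reads in pair A and 16 against 3 in pair B.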

How the data were processed

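The deposited file is 1 peak list for the 4 libraries, in GRCm39 coordinates (build from the submitters' processing notes). No source used here names the aligner, the peak caller, the cut-offs or how reads with several matches were treated. The authors' deposited fold was taken as log2 and their p as an unadjusted -log10 p, from the fit described next. Rows for 1 peak under several genes were counted once as peaks and under each gene as genes. Symbols were matched by symbol, then by synonym, to the RefSeq table of GRCm38.p6 (1609 of 1626), from which gene lengths but no positions were taken.

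Reads were recovered with Python 3.11.15 and scipy 1.17.1. Totals of both library pairs were fitted to 36 and 35 steps of the p ladders, with residuals of at most 1.7e-07. Each peak was then solved for whole reads (tolerance 1e-05, up to 60 input reads). The method was tested on simulated data. No solution was found for 212 peaks, which include those at the p ceiling of 400, and 18 peaks had several solutions.

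No test was run over the members: the members, lists and naming rule (every member and pathway gene with a peak) were set with earlier results of these data known. The counts of members, pathway and marker genes stand beside the share of all protein-coding genes with a peak. Alternatives used stronger peaks, joined peaks, 1 peak per gene, and, added after the data were seen, each pair alone and a minimum of 20 reads. Peak sequences were not used here, and some genes of the pathway list are not reported here.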

Additional observations from a re-analysis of the deposited data

How the results depend on the processing

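The count of 10 proteasome genes with a peak was the same with touching peaks joined and without the name matches of another function. It moved to 6 with peaks above the median fold, to 3 with peaks above the median -log10 p, to 2 with at least 20 reads in the weaker pair (Psmd5 and Psmf1) and to 0 when 2 or more separate regions were asked. The median strongest log2 fold of 4.84 was 4.75 in pair A alone and 4.79 in pair B alone. Those folds were recovered from the listed mean of both pairs, so their closeness to 4.84 is not a separate check. The median moved to 5.88 with peaks above the median -log10 p, since only 3 genes are left there. The median width of 99.5 nt moved to 152 nt with peaks above the median fold, to 217 nt with peaks above the median -log10 p and to 149.5 nt with touching peaks joined. The share in the 3' UTR ran from 40 to 50%. The count of 8 pathway genes moved to 5 with peaks above the median fold and to 3 with peaks above the median -log10 p. No paired analysis was possible because no result comes from a test and the recovered library pairs carry no replicate number; values of each pair alone are given instead. An input of 1 read in the weaker pair limits the precision of the folds of 10 of the 12 proteasome peaks. In the other pair of these peaks, 1 is the smallest whole number that fits.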
